A study of Mus musculus with 12 samples.

Results

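The 88 genes described here encode the proteins of the cytosolic ribosome in mouse liver, or close copies of them. They were chosen by symbol from the 26015 genes of the 1 deposited table that lists all genes: every symbol made of Rpl or Rps and a number, together with Rplp0, Rplp1, Rplp2, Rpsa and Fau. Rps6k kinases, which share the prefix, and loci with a "-ps" pseudogene symbol were left out. By symbol, 34 of the 88 were placed with the small subunit, 45 with the large subunit and 3 with the P stalk. The other 6 were listed as minor paralogs of a major gene. These names do not rank levels here, since Rps27l had a mean of 1011 counts per 1000 of Rps27 in HFD. The GENCODE M21 annotation lists 83 as protein coding and 5 as processed pseudogenes (Rps3a2, Rps3a3, Rpl32l, Rpl6l and Rps4l). Of these pseudogenes, Rps3a2 and Rps3a3 are counted with the small subunit, Rpl32l and Rpl6l with the large, and Rps4l with the paralogs. A mean of at least 1000 counts in the 6 libraries of that table was reached by 75 of the 88, and 9 had under 200.

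A cytosolic ribosome is built from a small subunit, which reads the mRNA, and a large subunit, which joins amino acids. Each holds ribosomal RNA and 1 copy of most ribosomal proteins, so the mRNAs of these genes are kept near one another in amount in most tissues. The P stalk, a flexible arm of the large subunit, calls in the elongation factors. Ribosomal protein mRNAs are known as TOP mRNAs, since they begin with a C followed by a run of pyrimidines (a 5′ terminal oligopyrimidine tract) through which mTORC1, a growth-sensing kinase complex, controls their translation. Liver makes most plasma proteins and is rich in ribosomes.

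Liver RNA came from C57BL/6N mice in 4 groups of 3 samples. Chow mice (replicates 8, 17 and 19) ate regular chow, and HFD mice (4, 30 and 38) ate a high-fat diet that makes mice obese, both without injection. Vehicle mice (15, 23 and 55) ate the high-fat diet and received 30% DMSO in corn oil, and PCN mice (5, 11 and 27) ate it and received pregnenolone 16α-carbonitrile at 50 mg/kg intraperitoneally. The diets ran for 15 weeks from 6 weeks of age, and injections were given once daily for 4 days. PCN, a synthetic steroid, is the standard activator of the pregnane X receptor in rodents, which turns on genes of drug metabolism. The labels do not name the solvent of PCN, and do not say outright that each sample is a separate animal, so p-values measure only the spread between these samples. HFD and vehicle libraries held 7466378 to 38161486 counts, and the 18 hepatocyte markers summed to 2068391 to 2956884 normalized counts there, with 0 of them at 0 in all 6 libraries.

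Values are normalized counts, which are read counts divided by the library's size factor as recovered from the deposited tables, and a fold is a ratio of group means. Replicates are given in the order above. Counts of all 88 genes were at hand for HFD and vehicle, of 76 for PCN, of 63 for chow, and of those 63 in all 12 libraries. The other 5 deposited tables give values only for genes that the authors called at an adjusted p under 0.05, so a gene has PCN or chow counts because it was called in some comparison. Values that involve PCN or chow are therefore given as a description, and "rose" and "fell" there refer to the authors' calls. HFD against vehicle is the only comparison tested afresh over all genes, and for the others an edgeR test could be run on the listed genes alone.

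The starts of 8 genes with a pyrimidine tract exactly at the annotated start are shown to let the TOP tract be seen, each as the 30 bases from 15 before to 15 after it, 5′ to 3′ on the gene's strand, from RefSeq on GRCm38.p6. Capitals mark the tract, a C followed by at least 5 pyrimidines, counted in these 8 genes from the annotated start. Pyrimidines directly before that start are in small letters, so the full run is longer than the part marked.
Rps18: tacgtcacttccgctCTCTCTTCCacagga
Rpl35: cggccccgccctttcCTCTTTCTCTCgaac
Rpl14: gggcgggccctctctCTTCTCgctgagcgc
Rpl28: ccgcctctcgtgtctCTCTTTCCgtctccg
Rps15a: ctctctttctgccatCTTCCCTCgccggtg
Rpl38: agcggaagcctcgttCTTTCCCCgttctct
Rps10: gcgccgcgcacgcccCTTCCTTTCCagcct
Rps27: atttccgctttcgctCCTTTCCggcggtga

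The windows lie at chr17:33955651-33955680, minus strand (Rps18); chr2:39005117-39005146, minus strand (Rpl35). Those of the large-subunit genes Rpl14, Rpl28 and Rpl38 lie at chr9:120571502-120571531, chr7:4792950-4792979, chr11:114668565-114668594, all on the plus strand. Those of the small-subunit genes Rps15a, Rps10 and Rps27 lie at chr7:118116133-118116162, chr17:27635230-27635259, chr3:90213634-90213663, all on the minus strand. In each window the first 15 bases lie before the RefSeq start and the last 15 from it on. GENCODE M21 lets 7 of these 8 genes (all but Rps27) begin upstream of the whole window, so those windows lie inside the gene as it is annotated there.

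The same window is shown for 3 minor paralogs, and for Rpl15, an abundant large-subunit gene that was not listed for PCN.
Rpl22l1: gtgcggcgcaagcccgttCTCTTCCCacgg
Rps27l: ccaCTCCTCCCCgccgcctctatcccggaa
Rpl7l1: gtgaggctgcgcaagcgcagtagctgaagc
Rpl15: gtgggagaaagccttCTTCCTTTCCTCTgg
In Rpl22l1 the tract starts at base 4, counted from the RefSeq start. In Rps27l it lies upstream of that start, from 12 bases before it, and in Rpl7l1 no such tract lies in the window. Rpl15 has a tract of 13 bases counted from its start, with further pyrimidines directly before it. The windows lie at chr3:28805493-28805522, plus strand, at chr9:66946071-66946100, plus strand, at chr17:46782642-46782671, minus strand and at chr14:18270972-18271001, minus strand.

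Across the 12 libraries the 63 genes with all counts were lowest in uninjected HFD liver and highest with PCN. Their normalized counts summed to 133416 ± 6142 in HFD, 149537 ± 18312 with vehicle, 173302 ± 15470 in chow and 243753 ± 32458 with PCN (SD, n = 3). By group mean, 57 of the 63 were ordered HFD, vehicle, chow, PCN from low to high. In 5 more HFD and vehicle changed places, and in 1, Rpl41, vehicle lay above chow. PCN thus had the highest mean for each of the 63, which were listed because they were called.

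Single libraries followed the groups with some spread. The median fold of the 63 genes over the HFD mean was 1.198, 1.282 and 1.427 in chow, 1.055, 0.964 and 0.989 in HFD, 1.235, 1.119 and 0.965 with vehicle, and 2.113, 1.71 and 1.682 with PCN. All 63 genes lay above the HFD mean in each PCN library. In vehicle 55 only 26 of 63 did, against 63 in vehicle 15, so the vehicle libraries spanned the range from HFD to chow. PCN 5 stood above the other PCN libraries. Size factors were 1.83, 0.594 and 0.961 for the PCN libraries and 2.01, 1.23 and 0.451 for the HFD libraries, and the part of depth in the order of libraries was not tested. In bulk liver, fewer cells of a type and less RNA per cell cannot be told apart.

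**Figure D1:**
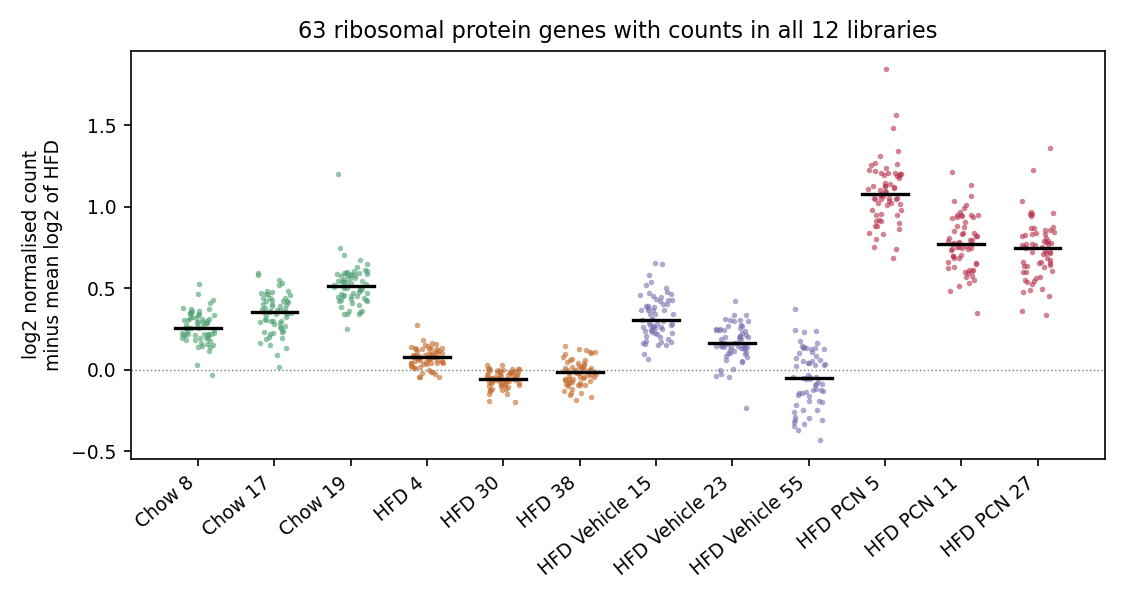
Each point is 1 of 63 ribosomal protein genes in 1 library, as log2 normalized count minus the gene's mean log2 value in the 3 HFD libraries (y axis), and black bars are medians. PCN libraries have medians of 1.08, 0.77 and 0.75, above every other library, and vehicle 55 sits at -0.05, level with HFD.

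PCN against uninjected HFD gave the largest set of calls. In the authors' deposited table, 76 of the 88 genes rose and 0 fell, beside 1.9% of all genes rising and 1.26% falling, and 8.58% rising among genes at a mean of 1000 counts or more. The 76 comprised 32 of 34 small-subunit genes, 40 of 45 large-subunit genes, all 3 P stalk genes and 1 of 6 paralogs. The small-subunit members not among them were the pseudogenes Rps3a2 and Rps3a3. The ratio of means had a median of 1.796, an interquartile range of 1.652 to 1.918 and a range of 1.441 (Rpl7a) to 2.825 (Rpl22l1), and 12 genes had a ratio of 2 or more. Without PCN 5 the median was 1.645, the lowest on leaving out any of the 6 libraries. At the edge of the deposited threshold stood Rpl22 and Rpl7a, with deposited adjusted p of 0.0318 and 0.0402, and values just outside it are not listed.

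Among small-subunit genes Rps18, a protein of the head of the subunit, was at 3289, 3109 and 3023 in HFD and 7206, 6571 and 5683 with PCN. All PCN values of Rps18 exceeded all HFD values, and in the authors' deposited table the log2 change was 1.01 ± 0.14 (SE; DESeq2 adjusted p = 4.24e-10). Rps26, which lines the mRNA exit channel, was at 1084, 919 and 874 in HFD and 2367, 1866 and 1962 with PCN, a ratio of 2.15, the highest of the small subunit.

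Rps24 was at 2251, 2205 and 2293 in HFD and 5200.4, 4349 and 3828 with PCN, a 1.98-fold ratio. Rps28, another protein of the mRNA exit region, was at 1388, 1147 and 1292 and 3041, 2606 and 2175 (2.04-fold). In both the PCN and HFD libraries were apart, and PCN 5 was the highest library. Rps27a is made as a fusion with ubiquitin that is cut apart after translation. It was at 1929, 1783 and 1687 in HFD and 3936, 3369 and 3022 with PCN, 1.91-fold higher. Rpsa, also known as the laminin receptor precursor, was at 4427, 4253 and 4799 and 9399, 7726 and 7634, 1.84-fold higher.

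The smaller ratios of the small subunit included genes of known regulatory interest. Rps6, the substrate of the S6 kinases downstream of mTORC1, was at 2295, 2347 and 2359 in HFD and 4251, 3606 and 3361 with PCN, 1.6-fold higher (deposited adjusted p = 0.00028). Fau, whose product is a ribosomal protein fused to a ubiquitin-like protein, was at 1730.1, 1518 and 1503 and 2545, 2313 and 1992, a ratio of 1.44 and the lowest of the subunit. Rps2, which lies at the mRNA entry, was at 5663, 5481 and 5220.4 and 8520.0, 8499.5 and 7136, 1.48-fold higher. PCN and HFD libraries did not overlap for these 3 either, nor for any of the 76 listed genes, which the listing itself selects. Of all 2449 genes with counts in both groups, 29.5% had every PCN library above every HFD library. Rps27 was at 2086, 1939.9 and 1851 in HFD and 3949, 3192 and 2892 with PCN (1.71-fold), and Rps4x at 3742, 3570.0 and 3411 and 7333, 5993 and 5737 (1.78-fold).

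Among large-subunit genes Rpl13 had the lowest deposited p. It was at 2197, 2129 and 2109 in HFD and 4853, 4145 and 3948 with PCN, and the authors' deposited table gave a log2 change of 0.97 ± 0.14 (adjusted p = 4.79e-10). The HFD libraries lay close together here. Rpl36 was at 1223, 1096 and 1049.8 and 2615, 2266 and 2047, 2.06-fold higher. Rpl3, whose protein reaches into the peptidyl transferase centre, was at 3496, 3386 and 3507 and 7512, 7602 and 5701, 2-fold higher, with PCN 27 below the other PCN libraries. Rpl12, which forms the base of the P stalk, was at 1704, 1685 and 1882 and 5188, 3106 and 4098, and its ratio of 2.35 was the highest of the large subunit.

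Rpl23a and Rpl35 sit at the exit of the tunnel through which the new protein leaves. Rpl23a was at 1991, 1777 and 1838 in HFD and 4011, 3249 and 3320.5 with PCN (1.89-fold), and Rpl35 at 946, 876 and 972 and 2179, 1784 and 1629 (2-fold). Rpl10a, of the L1 stalk that releases spent tRNA, was at 1591, 1483 and 1642 and 3615, 2641 and 3021 (1.97-fold). Rpl32 was at 2181, 2151 and 2159.6 in HFD, values close to one another, and at 4738, 4189 and 3578 with PCN (1.93-fold). Rpl41 encodes the shortest ribosomal protein, of 25 codons, and was at 3039, 2837 and 2921 and 6727, 5665 and 4946 (1.97-fold). Rpl10, which joins the subunit late in its assembly, was at 4901, 4609 and 4869.7 and 8490.5, 7393 and 6913 (1.58-fold). Each of these 6 had its lowest PCN library above its highest HFD library.

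The P stalk holds 1 copy of Rplp0 and paired copies of Rplp1 and Rplp2. Rplp0 was at 5091, 5131 and 4836 in HFD and 10545, 9601 and 8587 with PCN, 1.91-fold higher (deposited adjusted p = 5.16e-09). Rplp1 was at 4015, 3774 and 3835 and 10819.5, 7455 and 7565, 2.22-fold higher, with PCN 5 well above the others. Rplp2 was at 1434, 1218 and 1543 and 3282, 2383 and 2461, 1.94-fold higher. Groups did not overlap for any of the 3.

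Rpl22l1, a paralog that can replace Rpl22 in the ribosome, had the highest ratio of all 76. It was at 229, 215 and 249 in HFD and 828, 536 and 593 with PCN, and the authors' deposited table gave a log2 change of 1.39 ± 0.20 (adjusted p = 6.33e-10). Rpl22 itself was at 1425, 1427 and 1398 and 2513, 1683 and 2227, a ratio of 1.51. PCN 11 was the lowest PCN library for both.

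**Figure D2:**
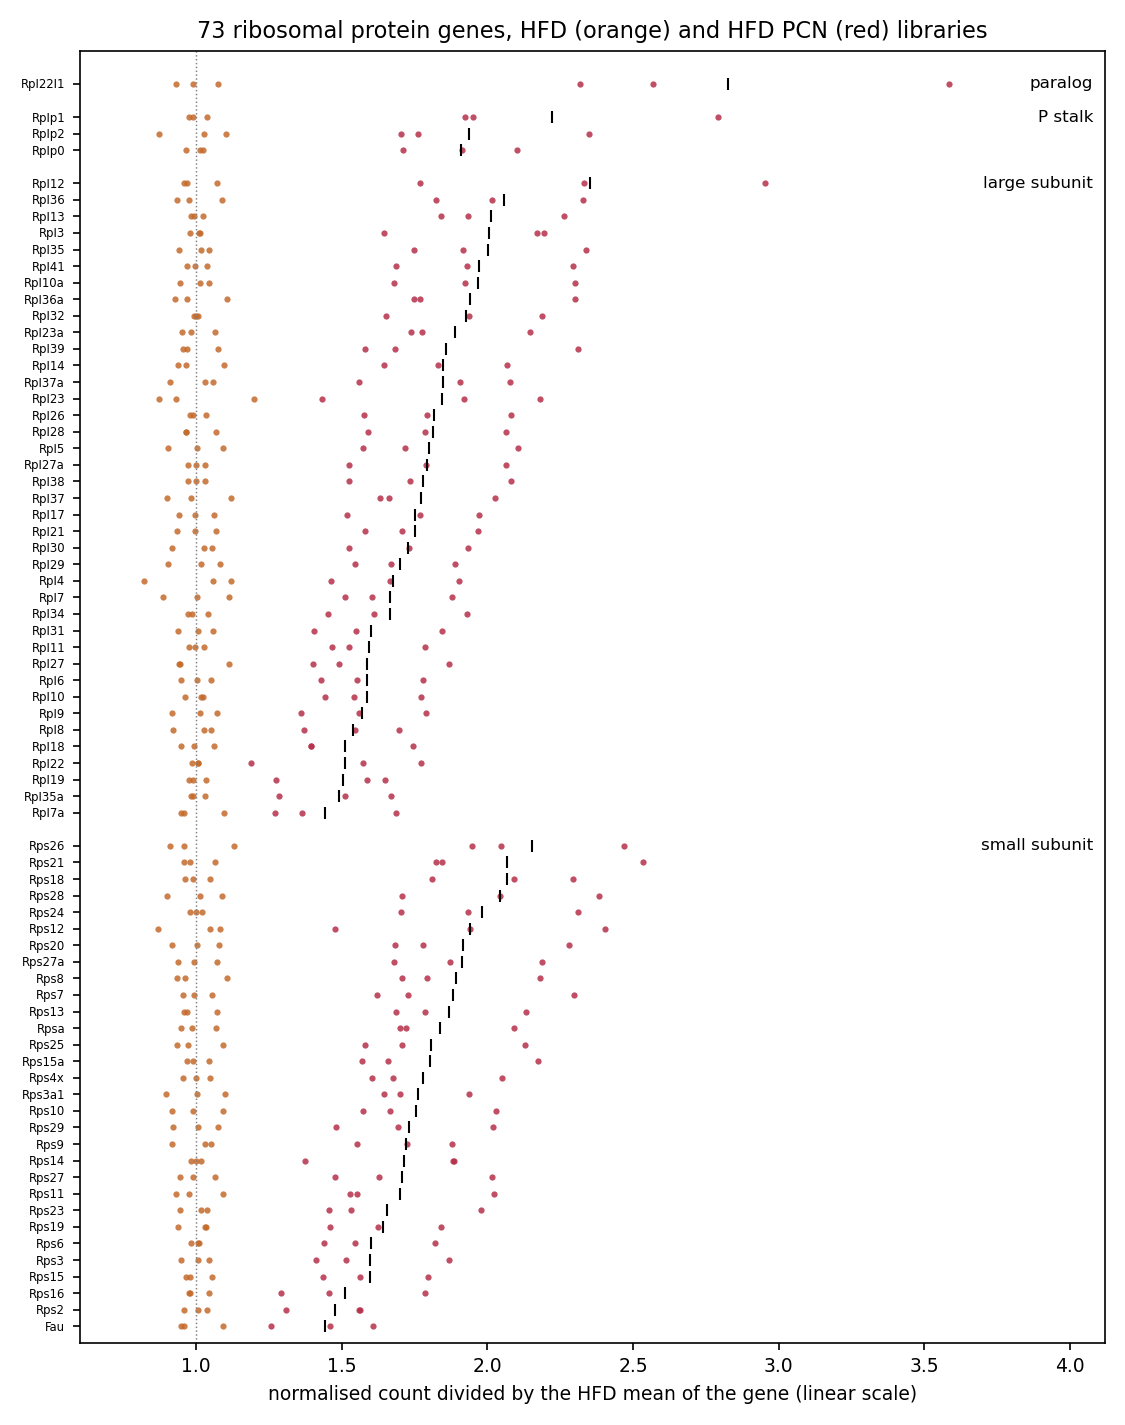
Each row is 1 of 73 of the 76 genes listed between PCN and HFD, grouped as paralog, P stalk, large subunit and small subunit and ordered by ratio. Points are the 3 HFD (orange) and 3 PCN (red) libraries as normalized count divided by the gene's HFD mean (x axis, linear), and black ticks are the PCN means, from 1.441 to 2.825; the rows were selected by the authors' calls.

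No PCN counts were at hand for 12 of the 88. These were the paralogs Rpl7l1, Rps27l, Rps4l, Rpl3l and Rpl39l, the pseudogenes Rps3a2, Rps3a3, Rpl32l and Rpl6l, and the large-subunit genes Rpl15, Rpl13a and Rpl24. They were not called in any comparison with PCN.

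Within the 76 genes called higher, the ratio was set beside the gene's own features. Over the 76 genes Spearman's rho of the ratio was -0.1 with transcript length, -0.16 with the HFD level per kilobase and -0.28 with the number of codons. These are descriptions over genes of the same libraries. A second test was edgeR's quasi-likelihood test on the listed counts, chosen after the tables were seen. It adjusted over an estimated 25649 genes, more than the 13775 kept by the filter in the vehicle comparison. Its counts therefore depend on that number and set no bound on the calls. The test passed 22 of the 76 at an adjusted p under 0.05 (range 0.0216 to 0.377), led by Rpl22l1, Rps26 and Rpl36. Of all 809 genes listed in this comparison it passed 142 (17.6%). Without a single library it passed 0 of the 76 (HFD 4, HFD 30, HFD 38 or PCN 27), 1 (PCN 5) or 10 (PCN 11), and 0 to 177 of the 809.

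PCN against vehicle compares injected groups. In the authors' deposited table, 48 of 88 genes rose and 0 fell (of all genes 1.07% rose and 0.642% fell, and 4.99% rose of those at a mean of 1000 counts or more): 20 small-subunit, 24 large-subunit and 3 P stalk genes, and Rpl22l1. The median ratio of the 48 was 1.688, from 1.458 to 2.175, and 1.559 without PCN 5. Rpl13 had the lowest deposited p: it was at 2567, 2342 and 2226 with vehicle, against the PCN values above (1.81-fold, adjusted p = 4.50e-05). Rps24 was at 2526, 2559.9 and 2184 with vehicle (1.84-fold, adjusted p = 0.000342). Rpl12, at 2308, 1702 and 1688 with vehicle, had the highest ratio at 2.17. In these 3 no vehicle library reached the lowest PCN library.

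For 73 of the 76 genes with PCN counts every PCN library lay above every vehicle library, against 27.8% of the 2440 genes with counts in both groups. All of these have PCN counts only through a call. The exceptions were Fau, Rpl22 and Rps16. Fau was at 2007, 1822 and 1734 with vehicle and Rpl22 at 1622, 1698 and 1460.4, and for both the highest vehicle value passed the lowest PCN value. Rplp0 was at 6478, 5579.8 and 5503 with vehicle (1.64-fold with PCN), Rplp1 at 5192, 4336 and 3750.2 (1.95-fold) and Rplp2 at 1896, 1476 and 1642 (1.62-fold), and all 3 were called. Rpsa, at 6203, 5358 and 5038 with vehicle, stood near the threshold with a ratio of 1.49 (deposited adjusted p = 0.0439). Rps26, Rps6, Rps27, Rpl7 and Rpl28 were among the genes not called although their libraries did not overlap. Rps26 ranged from 772 to 1508 with vehicle, a wide spread. In the edgeR test of the listed counts 0 of the 48 passed (lowest adjusted p 0.14). All 48 had an unadjusted p under 0.05, which their listing through calls on these same counts largely fixed in advance. Of all 442 listed genes 20 passed (4.52%).

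PCN against chow differed in both diet and injection. In the authors' deposited table, 47 of 88 rose and 0 fell (of all genes 4.43% rose and 3.66% fell, and 11.2% rose of those at a mean of 1000 counts or more), with 21 of the small subunit, 22 of the large, 3 of the P stalk and Rpl22l1. The median ratio of the 47 was 1.448, from 1.328 to 1.759 (Rpl12), and 1.338 without PCN 5. Rpl41 was at 3172, 3437 and 3719.6 in chow, below all PCN values (1.68-fold, deposited adjusted p = 7.10e-05), and Rpl3 at 3391, 4026 and 4648 (1.73-fold, 0.000204). Rpl13 was at 2436, 2838 and 3010.0 in chow (1.56-fold) and Rpl35 at 1084, 1099 and 1326 (1.59-fold).

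PCN libraries lay above all chow libraries for 57 of the 63 genes with counts in both, against 49.2% of all 2241 such genes, which were also listed through calls. The 6 others included Fau, Rpl35a, Rpl7a, Rps27 and Rps3. Fau was at 2011, 2117 and 2231 in chow, and its PCN mean was 1.08 times the chow mean, while Rps27 was at 2439, 2477 and 3073 in chow (ratio 1.26). Rps6, at 2795, 2953 and 3220.0 in chow, had a ratio of 1.25 and was not called. The edgeR test of the listed counts passed 0 of the 47 (lowest adjusted p 0.0536), and 1 without PCN 11. It gave all 47 an unadjusted p under 0.05, which their listing through calls largely fixed in advance. Of all 2032 listed genes it passed 771 (37.9%), so the ribosomal protein genes were below the listed genes in this count.

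High-fat diet against chow compares the uninjected groups. In the authors' deposited table, 32 of 88 genes fell and 0 rose (of all genes 2.05% fell and 2.81% rose, and 8.92% fell of those at a mean of 1000 counts or more): 14 of the small subunit, 15 of the large, 2 of the P stalk and Rpl22l1. The median ratio of HFD to chow over the 32 was 0.744, or 1.343-fold lower, with a range of 0.587 (Rpl22l1) to 0.781 (Rps6). Rpl36 had the lowest deposited p: it was at 1615, 1694 and 1880.3 in chow and 1223, 1096 and 1049.8 in HFD, a ratio of 0.649 and a log2 change of -0.59 ± 0.12 (adjusted p = 0.000166). Rps26 was at 1224, 1432 and 1482 in chow (ratio 0.695), Rps24 at 2855, 2897 and 3438 (0.734) and Rps28 at 1561, 1826 and 1930.0 (0.72).

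Rpl22l1 was at 318, 333 and 529.5 in chow and fell to 0.587 of that mean in HFD, although chow 19 was far above the other chow libraries. Of the P stalk, Rplp0 was at 5812, 6726 and 6912 in chow (ratio 0.774) and Rplp1 at 4527, 5176 and 5854 (0.747), and both fell. Rplp2, at 1611, 1830.1 and 1905 in chow with a ratio of 0.785, was not called. Rps18 (3827, 4116 and 4779.7 in chow), Rps27a (2417, 2248 and 2676), Rpl10a (1833, 2164 and 2348) and Rpl32 (2522, 2851 and 3112) fell too, with ratios of 0.74, 0.735, 0.743 and 0.765. Rpl12 was at 2009, 2177 and 2858 in chow, Rpl23a at 2164, 2501 and 2639.7, Rpsa at 4978, 5829 and 6587 and Rps4x at 4138, 4615 and 5209, and these 4 were not called.

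For 60 of the 63 genes every HFD library lay below every chow library, and the exceptions were Rpl3, Rpl11 and Rpl31. Of all 2870 genes with counts in both groups 32.4% lay that way, and these too have chow counts only through calls. Rpl11 is the protein that, with Rpl5 and 5S RNA, holds back Mdm2 when ribosome assembly fails. The edgeR test of the listed counts passed 0 of the 32 (lowest adjusted p 0.0981), and 119 of all 1226 listed genes (9.71%). It gave all 32 an unadjusted p under 0.05, which their listing through calls largely fixed in advance. Macrophage and stellate-cell markers moved in the same comparison: 10 of 23 and 8 of 18 were called higher in HFD and 0 lower, among them Adgre1 (1.719-fold) and Col1a1 (8.741-fold). Of 18 hepatocyte markers 3 were lower (Serpina1a, Apoa1 and Hnf4a) and 0 higher. Of 9 cholangiocyte markers 3 were higher (Spp1 4.102-fold, Krt23 2.852-fold and Pkhd1 2.259-fold) and 0 lower, and of 14 endothelial markers Lyve1 was higher (1.512-fold) and Kdr and Bmp2 lower (0.682 and 0.471 of chow). The part of these markers in the change of the ribosomal protein genes was not tested. The comparisons share groups (the HFD libraries enter this one and PCN against HFD), so a low HFD value moves both.

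Vehicle against no injection on the high-fat diet was tested on all genes with edgeR. Of the 82 ribosomal protein genes kept by its expression filter 0 passed an adjusted p of 0.05, and of all 13775 genes 1 did (0.00726%). In the authors' deposited DESeq2 table, 0 of 88 were called, against 0.792% of all genes and 3.07% of those at a mean of 1000 counts or more, and 3 had an unadjusted p under 0.05. In edgeR 5 of the 82 had an unadjusted p under 0.05, of which 4 were higher with vehicle (all genes 12.5% in either direction and 5.79% higher). The median log2 change was 0.14, against 0.02 over all genes, with 74 positive and 8 negative, an interquartile range of 0.07 to 0.21, and a sign that flipped to -0.01 when libraries were scaled by total counts alone. That scaling moved the median of all genes to -0.12, and the members' median lay 0.11 above it, compared with 0.12 above with TMM. The median was 0.06 without vehicle 15 and 0.23 without vehicle 55.

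**Figure D3:**
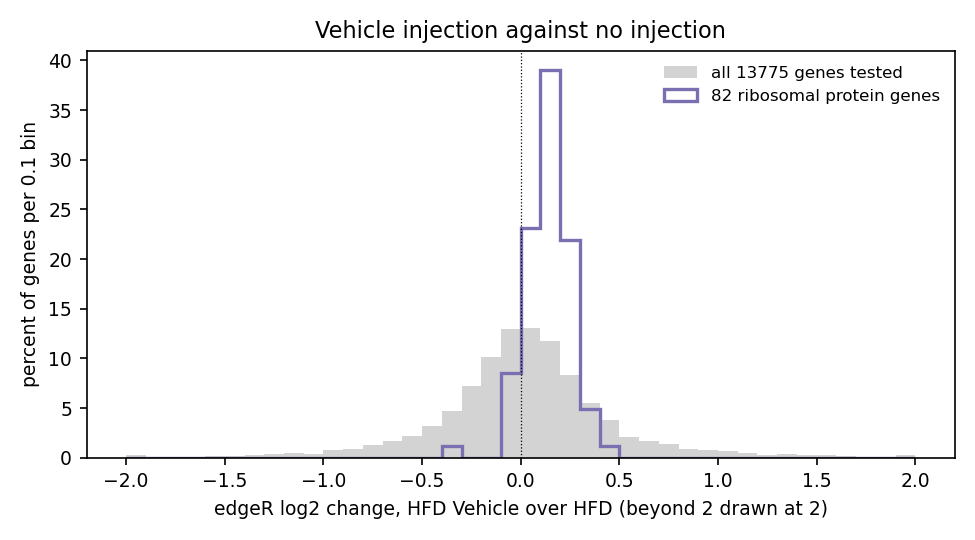
The histograms show edgeR log2 changes, vehicle over HFD, for 13775 genes (grey) and the 82 kept ribosomal protein genes (violet outline), as percent of each set per 0.1 bin. The outline is narrow and centred near 0.14, with Rps27l alone in the bin left of -0.3.

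The members with the largest changes were followed by library. Rpl22l1 was at 229, 215 and 249 in HFD and 362, 292 and 298 with vehicle, without overlap, and its edgeR log2 change of 0.46 ± 0.14 (SE) had the lowest adjusted p of the members, 0.292. Rps27a (2381, 2405 and 1989 with vehicle, log2 0.32 ± 0.12) and Rpl28 (1548, 1400.3 and 1398 in HFD and 2102, 1721 and 1634 with vehicle, 0.32 ± 0.13) were also apart from HFD in every library. Rps3a3, a pseudogene, was at 11.9, 7.3 and 6.7 in HFD and 10.4, 15.9 and 9.2 with vehicle, a log2 difference of 0.37 ± 0.42 from very few counts. Toward lower values, Rps27l was at 2028, 1921 and 1979.8 and 1560.0, 1769.7 and 1231, without overlap (-0.39 ± 0.15, edgeR adjusted p = 0.359).

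The next 4 in that direction overlapped between groups and were close to 0. They were Rpl39 (1125, 1111 and 1249.6 in HFD, 1216, 1164 and 897 with vehicle, log2 -0.10 ± 0.14), Rpl7l1 (-0.07 ± 0.10), Rps12 (1267, 1052 and 1309.5 and 1353, 1204 and 1006, -0.03 ± 0.15) and Rps15a (1179, 1202 and 1269.6 and 1354, 1265 and 974, -0.03 ± 0.14). Of the 82 genes, 18 had all vehicle libraries above all HFD libraries (9.6% of all genes did) and 1, Rps27l, had them all below (9.99% of all genes). The abundant genes mostly overlapped: Rps18 was at 4044, 3969 and 2945 with vehicle, Rplp1 at 5192, 4336 and 3750.2, Rpl36 at 1444, 1287 and 946 and Rpl32 at 2467, 2391 and 1747. In each of these 4 vehicle 55 was at or below the lowest HFD library.

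As a share of all counts, which needs no scaling between libraries, the 88 genes took 0.965%, 0.863% and 1.024% in HFD and 1.033%, 0.976% and 0.842% with vehicle. The means were 0.951% ± 0.0817 and 0.950% ± 0.098 (SD, n = 3; two-sided exact permutation p = 1; the smallest p that 3 against 3 allow is 0.1). Summed counts of large-subunit genes were 1.38 ± 0.0155 times those of small-subunit genes in HFD and 1.36 ± 0.0291 times with vehicle (exact permutation p = 0.5). Over the 63 genes known in all libraries the same ratio was 1.33 ± 0.025 in chow, 1.35 ± 0.0111 in HFD, 1.32 ± 0.0255 with vehicle and 1.34 ± 0.015 with PCN. Among these 63 genes the proportion was thus nearly the same in the 4 groups. They have chow and PCN counts only through calls, so the proportion over all 88 is not known there. Against chow, the authors' deposited table for vehicle called 0 of 88 genes in either direction (3.1% of all genes and 10.8% of those at a mean of 1000 counts or more were called). Of the 63 with counts 62 had a lower mean with vehicle than in chow, at a median ratio of 0.853, and 20 had every vehicle library below every chow library (28.2% of all 2863 genes with counts in both did), Rps24 (2526, 2559.9 and 2184 with vehicle) and Rpl36 among them.

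Minor paralogs were compared with their partners within each library. Rps27l, a p53-responsive copy of Rps27, had 972, 990.3 and 1069.5 counts per 1000 of Rps27 in HFD and 611, 728 and 703 with vehicle. The groups did not overlap (exact permutation p = 0.1, the smallest possible, and 0.267 adjusted over 4 pairs). Rps27 was at 2552, 2431 and 1751 with vehicle, so the means of the pair moved in opposite directions. Rpl22l1 had 161, 151 and 178 counts per 1000 of Rpl22 in HFD, 223, 172 and 204 with vehicle (p = 0.2, 0.267 adjusted, exact permutation), and 329.5, 318 and 266 with PCN. The PCN values lay above all others; they are a description, since the pair is known there through its calls.

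Rpl7l1, which belongs to ribosome assembly more than to the mature ribosome, was at 1047, 958 and 912 in HFD and 928, 943 and 913 with vehicle. Its partner Rpl7 was at 4782, 4303 and 3804 and 5129.9, 5293 and 4122. Rpl7l1 had 219, 223 and 239.8 counts per 1000 of Rpl7 in HFD and 181, 178 and 221 with vehicle (p = 0.2, 0.267 adjusted, exact permutation). Rps4l, a processed copy, was at 168, 239.6 and 149 and 291, 149.7 and 123, or 45.0, 67.1 and 43.6 against 66.8, 37.9 and 37.5 per 1000 of Rps4x (p = 0.5, 0.5 adjusted, exact permutation). Rpl3l, known from striated muscle, and Rpl39l, known from testis, had 5 and 2 counts in the 6 libraries together, too few for a ratio. Reads of near-identical copies can be split between loci, so these ratios depend on how the authors counted shared reads, which is not given in the sources used here.

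**Figure D4:**
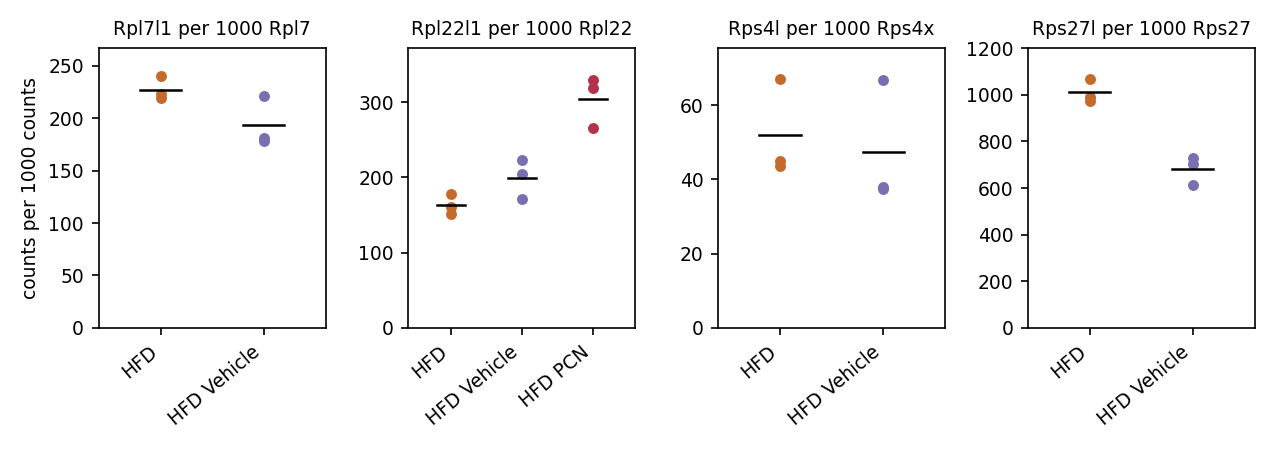
Counts of 4 minor paralogs per 1000 counts of the major gene in each library (points) with group means (bars), y axes from 0. Rps27l is at 972 or more in HFD and at 728 or less with vehicle, and Rpl22l1 is highest with PCN.

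Levels were compared between genes per kilobase of transcript, with lengths of the principal GENCODE M21 transcript (271 to 3706 bases, median 740). Some of these transcripts are long for their coding part, as in Rps20 (3706 bases, 119 codons), which lowers the level per kilobase. Whether liver uses the transcript chosen was not tested. Over the 82 genes with a mean of at least 10 counts, the median in HFD and vehicle was 2870 normalized counts per kilobase, with an interquartile range of 1897 to 4003, a 2.11-fold span. Rplp1 was highest, at 7765 ± 251 per kilobase in HFD (SD, n = 3) and 17261 ± 3831 with PCN. Rpl41 followed at 6710.2 ± 232, then Rpl10 at 5999 ± 200.3, Rps27 at 5678 ± 343, Rps18 at 5608 ± 242 and Rps2 at 5466 ± 223. In HFD Rplp1 and Rpl41 stood apart from each other and from the rest by more than their SD, while Rps27, Rps18 and Rps2 did not differ beyond theirs. With vehicle Rplp1 (8869.7 ± 1454) and Rpl41 (8085 ± 1008) did not differ beyond their SD.

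The lowest 3 were Rps4l at 235 ± 60.7 per kilobase, Rpl13a at 113 ± 27.9 and Rps3a3 at 10.9 ± 3.6. Rpl13a, which encodes an ordinary large-subunit protein, was at 115, 90.5 and 149 normalized counts in HFD and 109.6, 106 and 153 with vehicle. Rpl24 was at 2.5, 2.4 and 8.9 and 1.9, 1.0 and 3.1. Both encode core proteins, and their levels were far below the median of the 82 genes. Many ribosomal protein genes have processed copies elsewhere in the genome: 182 loci with a "-ps" symbol of this family held 5075 counts, or 0.409% of the 1241584 counts on the 88 genes. Copies under other symbols were not counted, so this share may be too low for all copies. Whether reads of Rpl13a and Rpl24 were lost to shared mapping was not tested, and levels of single genes are uncertain to that extent.

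RefSeq promoters (250 bases before to 50 after the start, GRCm38.p6) were found for 64 of the 88 genes. A TOP-like tract, a C followed by at least 5 C or T on the coding strand, began within 15 bases of the start in 40 of the 64 (62.5%), against 29.5% of all 27025 genes. Directly at the annotated start it was found in 13 of 64 (20.3%), against 2.05% of all genes. In the 300 bases, read on both strands, the ETS core CCGGAA was in 54.7% of the member genes and 16.7% of all genes, and the GC box GGGCGG in 60.9% and 38.2%. The E-box CACGTG, the site of Myc, was in 9.38% and 8.09%. None of these motifs contains another. These are letter matches in windows fixed by the annotation.

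Among genes with PCN counts, which have them only through calls, the ratios with and without a tract were close. How the uncalled genes compare is not known. The median ratio of PCN to HFD was 1.78 for the 35 genes with PCN counts and a tract in the window, and 1.799 for the 21 without a tract. Of the sequences shown above, Rps18 and Rpl35, with tracts of 9 and 11 bases counted from the start, had ratios of 2.066 and 2.001. Rps27 and Rps10, with 7 and 10 bases, had 1.707 and 1.756. Rpl14, with 6 bases, had 1.848, and Rpl28, Rps15a and Rpl38, each with 8 bases, had 1.813, 1.802 and 1.78. Rpl22l1, whose tract starts at base 4, had the highest ratio.

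Other genes of translation were called with PCN in smaller counts. Of 21 measured elongation factors and other TOP mRNAs, 6 rose against HFD (28.6%) and 0 fell in the authors' deposited table, beside the 1.9% of all genes and 8.58% of abundant genes that rose. Rack1, a scaffold protein bound to the small subunit, was at 4220.1, 3879.8 and 4059.5 in HFD, 5119.5, 4648 and 4344 with vehicle, 4688, 5442 and 5946 in chow and 8336, 6601 and 6794 with PCN. It rose 1.787-fold against HFD and 1.54-fold against vehicle, and was 0.756 of chow in HFD, where it fell. Tpt1, a TOP mRNA for a growth-linked protein, was at 6828, 6549 and 5973 in HFD and 12530.0, 10302 and 10171 with PCN (1.706-fold) and rose 1.525-fold against vehicle. Snhg6, a TOP host transcript of a small nucleolar RNA, rose 1.836-fold, and the elongation factor genes Eef1b2, Eef1g and Eef2 rose 1.53-fold, 1.436-fold and 1.3-fold.

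Of 61 ribosome assembly factors 2 rose with PCN against HFD (Utp14a 1.691-fold, Ddx56 1.406-fold), and of 17 genes of rRNA transcription 2 rose, Taf1d (1.529-fold) and Myc. Myc, a transcription factor known to drive ribosome production, was at 68.0, 108 and 91.0 in HFD and 213, 135 and 365 with PCN (2.665-fold), with PCN 27 far above the rest. Of 38 initiation factors 1 rose (Pabpc4, 1.605-fold) and 0 fell. Of 27 genes of mTORC1 control Eif4ebp1, which encodes a repressor of cap-dependent initiation, rose 1.605-fold, and Ddit4, an mTORC1 inhibitor, and Mtor fell, to 0.578 and 0.743 of HFD. Of 10 p53 targets tied to ribosome stress 2 fell and 0 rose. Cdkn1a, a cell cycle inhibitor, was at 702, 726 and 444 in HFD and 96.1, 126 and 55.1 with PCN, 6.745-fold lower, and Zmat3 was 1.799-fold lower. The mitochondrial ribosome is a separate set: 3 of 77 genes rose (Mrpl15 1.453-fold, Mrps34 1.491-fold, Mrpl54 1.567-fold). Of 83 subunits of oxidative phosphorylation 0 were called in either direction, and of 38 proteasome subunits 6 rose, led by Psma7 (1.857-fold). The shares that rose were 3.28% of assembly factors, 2.63% of initiation factors, 3.7% of mTORC1 genes and 3.9% of mitochondrial ribosome genes, between the 1.9% of all genes and the 8.58% of abundant genes, so these counts stand near the background. The share was 11.8% for rRNA transcription, from 2 genes, and 15.8% for the proteasome.

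Against vehicle (of all genes 1.07% rose and 0.642% fell) PCN libraries were called higher for 2 of the 21 elongation and TOP genes (Tpt1 and Rack1) and 1 mitochondrial ribosome gene (Mrpl15, 1.424-fold), and lower for Ddit4 (0.495) and Cdkn1a (0.236), while 0 assembly, rRNA transcription, initiation, oxidative phosphorylation or proteasome genes were called. Between PCN and chow (4.43% of all genes rose and 3.66% fell) 1 elongation and TOP gene rose (Tpt1, 1.318-fold), 1 assembly gene (Nolc1, 1.41-fold) and Myc (3.792-fold), and 4 initiation factors fell (Eif5, Eif4a2, Eif4g2 and Eif2s3x). Also higher with PCN than in chow were 4 proteasome genes (Psmb9, Psmb10 and Psmb8 of the immunoproteasome, and Psma7), Mrpl54 (1.759-fold), Eif4ebp1 (1.664-fold) and Gdf15, a stress-induced cytokine (4.037-fold), while Cdkn1a was lower (0.187).

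Between HFD and chow (2.81% of all genes rose and 2.05% fell) 3 elongation and TOP genes fell (Tpt1, Naca and Rack1), as did 4 initiation factors (Eif5, Eif4b, Eif3d and Eif4a2), Npm1 of the assembly list, Polr1d of the rRNA transcription list and Mrpl15. Of the 38 proteasome genes 6 fell (Psma5, Psma7, Psmc2, Psmc6, Psmd4 and Psmd6, to between 0.683 and 0.749 of chow) and Psmb9 rose (2.341-fold). Of the mTORC1 list Mtor (1.375-fold) and Mlst8 (1.653-fold), parts of the kinase complex, rose, and Rps6kb1, an S6 kinase gene, fell (0.789). Of the 10 p53 targets Gdf15 (2.855-fold) and Phlda3 (2.293-fold) rose. Of the 83 oxidative phosphorylation genes Cox7a1 rose (2.786-fold) and Ndufb11 fell (0.799). In edgeR between vehicle and HFD 0 genes of any of these lists passed. The median log2 change there was 0.15 for assembly factors, 0.15 for elongation and TOP genes, 0.19 for rRNA transcription, 0.05 for initiation, -0.05 for the mitochondrial ribosome, 0.14 for the proteasome and -0.21 for oxidative phosphorylation.

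Markers of liver cell types were followed beside the ribosomal protein genes. With PCN against HFD, 1 of 18 hepatocyte markers rose (Serpina1a, 11893, 12597 and 8192 to 19669, 16679 and 15300.3) and 2 fell (Ttr and Pck1, to 0.539 and 0.451). Of 23 macrophage markers 1 fell (Cd14), of 18 stellate markers 2 fell (Col1a1 and Col1a2), of 14 endothelial markers 1 fell (Lyve1) and of 9 cholangiocyte markers 1 fell (Krt23), while 0 of these rose. Of 18 lymphocyte and granulocyte markers 0 were called. Of 10 measured markers of blood cells and fat Cfd and Alas2 fell, and of 13 mitochondrially encoded mRNAs mt-Nd6 fell. With PCN against vehicle 0 hepatocyte, macrophage, stellate, endothelial, cholangiocyte or lymphocyte markers were called, and Cfd was lower (0.03 of vehicle). With PCN against chow 11 of 18 hepatocyte markers fell and 0 rose, Alb to 0.465 of chow. In that comparison 7 of 18 stellate markers rose and 0 fell (Col1a1 3.822-fold, Col3a1 3.197-fold), 3 of 23 macrophage markers rose (Cd68, Gpnmb and Trem2) and Cd14 fell, and of the cholangiocyte markers Krt19 and Pkhd1 rose and Sox9 fell. Cfd, Alas2 and mt-Nd6 were lower there too, and 0 endothelial or lymphocyte markers were called. The part of these markers in the results was not tested.

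Between HFD and vehicle the summed macrophage markers ranged from 12461 to 19170.2 normalized counts in HFD and from 9277 to 13196 with vehicle, and 0 of 22 tested passed edgeR. Summed stellate markers ranged from 12521 to 16613 in HFD and from 7398 to 12525 with vehicle, and endothelial markers from 13418 to 15077 and from 8612 to 13057. In edgeR 0 markers of these lists passed an adjusted p of 0.05, and at an unadjusted p under 0.05 were 6 of 18 stellate and 7 of 14 endothelial markers (12.5% of all genes). So were 5 of 7 blood and fat, 2 of 7 cholangiocyte and 1 of 18 hepatocyte markers kept by the filter. Of macrophage markers 0 of 22 were, and of lymphocyte and granulocyte markers 0 of 4. The authors' deposited table called 5 markers lower with vehicle than in HFD: Sparc of the stellate list (0.536 of HFD), Lyve1 and Cdh5 of the endothelial list (0.42 and 0.578), Krt23 of the cholangiocyte list (0.227) and Hbb-bs of the blood and fat list (0.592). It called 0 markers of these lists higher. Lymphocyte and granulocyte markers were low, at 474 to 832 and 422 to 593. No marker of these lists was at 0 in all 6 libraries. The ribosomal protein genes themselves summed to 168776 to 182780.3 in HFD and 169397 to 215051 with vehicle, so their ranges overlapped. The part of these markers in that comparison was not tested.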

How the data were processed

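The authors' files are 6 pairwise tables of liver RNA-seq. The submitters' processing notes name HISAT2, the mouse build GRCm38 (mm10), HTSeq and DESeq2. Versions, the strand setting and how shared reads were counted are not given in the sources used here. Deposited values are raw read counts per gene and, per the file headers, a mean of normalized counts, a log2 fold change with its SE, a test statistic (a score), a p-value and an adjusted p-value. The deposited log2 changes are moderated toward 0. Only the table of vehicle against HFD lists all 26015 genes, and 0 of its rows lack a gene name. The others list 442 to 2032 called genes, so the number of genes tested there (25103 to 25876) was estimated from the p-values. Where tables shared a count it was the same (15768 values compared, 0 differed).

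Size factors came from a least-squares fit of the counts to the deposited means, put on 1 scale for 12 libraries (largest difference 0.519%). The complete table was tested with edgeR 4.0.16 quasi-likelihood (TMM, filterByExpr, Benjamini-Hochberg over 13775 genes, threshold 0.05), which was tested on simulated data. Alternatives were DESeq2 1.42.0, limma-voom 3.58.1, other scalings, no filter and leaving out each library. Ratios within a library had two-sided exact permutation tests. The planned tests presumed complete tables, so for the others the authors' calls are described. The edgeR test of their listed counts used the dispersion trend and prior of the complete table and was chosen after seeing the data. The members, gene lists and tests were chosen with earlier results of these data known. Genes named are drawn from the 20 with the lowest deposited adjusted p, the 6 highest and 3 lowest per kilobase, the 5 with the largest edgeR change in each direction, paralog pairs and fixed examples (Rplp0, Rplp1, Rplp2, Rpsa, Fau, Rps6 and Rack1); from other lists, called genes; further genes, such as overlapping exceptions, were named after their values were seen. Some genes are counted but not reported by name here. Coordinates of 81 of 88 genes matched GENCODE M21.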

Additional observations from a re-analysis of the deposited data

How the results depend on the processing

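No paired analysis was possible because the groups share no replicate numbers. At a deposited adjusted p under 0.01 in place of 0.05, 72 of 76 genes remained counted between PCN and HFD, 24 of 48 between PCN and vehicle, 20 of 47 between PCN and chow, and 3 of 32 between HFD and chow. At an unadjusted p under 0.05, 3 were counted between vehicle and HFD in place of 0. The shares of all genes at these thresholds were not counted, so a change in these counts cannot be told from a general one. The edgeR test of the listed counts (chosen after seeing the data) gave 22, 0, 0 and 0 in the first 4 of these comparisons. On leaving out each library it gave 0 to 10, 0 to 0, 0 to 1 and 0 to 0. Over all listed genes it passed 142 of 809, 20 of 442, 771 of 2032 and 119 of 1226. Leaving out each library gave 0 to 177, 0 to 28, 176 to 714 and 10 to 76 of those. The cause was not tested. Between vehicle and HFD 0 members passed under every alternative run. Of all genes, 268 passed with DESeq2 and 283 without a filter. Other scalings and limma-voom passed 1 or 2 genes and leaving out each library 0 to 9, so a count of 0 members says little there. The median log2 change of members there was 0.11 to 0.14 with DESeq2, RLE, TMM without the members, no filter or limma-voom, and 0.058 to 0.226 on leaving out each library. It reversed to -0.007 with total counts alone, which also moved the median of all genes to -0.119. The difference in the share of counts (vehicle minus HFD, percentage points) was -0.0005 and reversed to 0.0183 without the 10 most abundant other genes and 0.0019 without mitochondrial genes, with a range of -0.0444 to 0.0537 on leaving out each library. The difference in Rps4l per 1000 Rps4x was -4.49 and ranged from -14.2 to 3.13 on leaving out each library. The large to small subunit ratio and the other 3 paralog ratios kept their direction under every alternative run. The 3 samples per group limit what these tests can show.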
